A study of Homo sapiens with 16 samples.

Results

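MYC and 48 listed genes of nucleolar function and ribosome biogenesis were followed across 3 human cancer cell lines that differ in STAG2. A gene was represented by the probe set, 1 row of the array table, that was annotated to that gene alone and had the highest mean. Of the 49 listed genes, 45 had such a row, out of 18417 genes in all, and all 45 were among the 12978 genes tested. NOP56, PPAN, GNL3 and DDX18 had only rows shared with other genes and have no value here. By role the 45 genes were MYC itself, 7 genes of RNA polymerase I and nucleolar factors, 5 core proteins of the small nucleolar ribonucleoproteins, 18 factors of small subunit assembly and 14 of large subunit assembly.

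Ribosomes are built in the nucleolus, where RNA polymerase I transcribes the precursor of the ribosomal RNAs. Small nucleolar ribonucleoproteins modify and guide the cutting of this precursor, and separate sets of assembly factors fold it with ribosomal proteins into the small and the large subunit. MYC is a transcription factor that binds the E-box CACGTG together with its partner MAX, and many genes of this pathway are among its known targets in proliferating cells.

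RNA came from 16 untreated, growing cultures, each on 1 Affymetrix Human Gene 1.0 ST array. STAG2 is a cohesin gene; cohesin is a ring that embraces DNA and keeps replicated chromosomes joined. H4 and 42MGBA are brain tumour lines, and HCT116 is a colorectal cancer line. The STAG2-deficient H4 cultures, all labelled STAG2 mutant, were the parental line and clones 10 and 12, which had not recombined. The corrected ones were the knock-in clones 8-1, 8-3 and 88-1 after Cre. The deficient 42MGBA cultures were the parental line, labelled STAG2 mutant, and the knock-in clones 53 and 92 before Cre, labelled STAG2 deficient. The corrected ones were the post-Cre derivatives 53-1, 53-7 and 92-6 of these clones. In HCT116 the wild-type cultures were the non-recombinant clones 24 and 27, and the STAG2 knockout cultures were clones 7 and 21. Each clone descends from 1 cell, and clones 8-1 and 8-3 share a parent clone, as do 53-1 and 53-7. P-values therefore measure the spread between these clones and cultures. Array values are listed below in the order in which the cultures are named here.

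Log2 STAG2 checked the labels first. It fell by 2.19 in deficient against corrected H4 and fell by 2.44 in knockout against wild-type HCT116 (limma, Benjamini-Hochberg adjusted p of 2.4e-05 and 0.000115), with no overlap in either line. In 42MGBA the difference was -0.30 (95% interval -0.70 to 0.10, limma adjusted p = 1), the arrays overlapped, so this RNA gives no check of the 42MGBA labels. Array medians were 6.23 to 6.30 in H4, 6.24 to 6.29 in HCT116 and at most 5.05 in 42MGBA, so levels in 42MGBA were compared with the other lines only as percentiles within an array. Of the glial and neural markers 0 of 13 lay above the 75th percentile in any line, while mesenchymal markers did so for 10 of 12 genes in H4, 12 in 42MGBA and 0 in HCT116. Epithelial and colorectal markers lay above it for 7 of 13 genes in HCT116, 2 in H4 and 1 in 42MGBA.

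The promoters of these genes were read for the E-box, because MYC is the regulator in the list. RefSeq windows of GRCh38.p14, running from 250 bases before to 50 after a gene's start, were matched for 41 of the 49 listed genes. CACGTG, a palindrome that reads the same on both strands, stood in the window of 20 of these 41 genes (48.8%), against 8.77% of the 27305 genes in the table and 12.6% of the tested genes that have a window. By role it was found for 11 of 17 small subunit factors, 5 of 13 large subunit factors, 2 of 6 genes of the polymerase I and nucleolar group and 2 of 5 core proteins of the small nucleolar ribonucleoproteins. A match describes these letters only and is not a binding site.
The sequences below are 30-base windows, read 5′ to 3′ on the gene's strand with the E-box in capitals, of 8 genes that were lower in H4 than in HCT116 in both comparisons of the lines and of UTP20 and PNO1, which had the smallest p-values in the mean over the 3 lines. On the plus strand lie WDR43 (chr2:28894658-28894687), LTV1 (chr6:143843354-143843383), GAR1 (chr4:109815781-109815810), UTP20 (chr12:101280083-101280112) and PNO1 (chr2:68157885-68157914). On the minus strand lie RRP9 (chr3:51941892-51941921), PES1 (chr22:30591880-30591909), MYBBP1A (chr17:4555340-4555369), FBL (chr19:39846356-39846385) and NOP14 (chr4:2963374-2963403).
RRP9: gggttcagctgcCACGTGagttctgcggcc
WDR43: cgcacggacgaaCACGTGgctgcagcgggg
LTV1: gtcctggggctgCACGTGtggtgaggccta
PES1: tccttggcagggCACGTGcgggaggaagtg
MYBBP1A: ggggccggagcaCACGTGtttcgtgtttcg
FBL: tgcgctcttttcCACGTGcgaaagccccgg
GAR1: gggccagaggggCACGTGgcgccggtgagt
NOP14: tccgcggcccggCACGTGtcttagggtagc
UTP20: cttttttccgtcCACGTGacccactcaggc
PNO1: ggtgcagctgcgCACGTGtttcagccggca
Over the listed genes 19 matches left room for a full 30-base window, and 17 of them began within 50 bases of the start, 13 downstream and 6 upstream counting all 19. These 17 lay in 17 of the 41 genes. Of all windows in the table, counted by window and not by gene, 2.82% hold the motif within that distance. This share, unlike the count of 17, did not require room for a full 30-base window. In UTP20 the E-box began 10 bases before the start and in RRP9 5 bases before it. The 100 bases before the UTP20 start (chr12:101280005-101280104, plus strand) end 4 bases after the E-box.
UTP20 upstream: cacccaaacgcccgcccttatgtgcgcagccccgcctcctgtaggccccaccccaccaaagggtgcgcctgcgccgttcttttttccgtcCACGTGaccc

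With functional STAG2 in both lines, most of the 45 genes were lower in H4 than in HCT116. In corrected H4 against wild-type HCT116, 33 of 45 were lower and 1, GNL3L, was higher. Of all 12978 genes 52.7% passed the test, 29% lower and 23.7% higher, so a difference between these lines was itself common. The median difference of the 45 was -0.70 on the log2 scale against -0.067 for all genes tested. By role the genes that were lower numbered 5 of 7 for polymerase I and nucleolar factors, 3 of 5 for core proteins of small nucleolar ribonucleoproteins, 14 of 18 for the small subunit and 10 of 14 for the large subunit, beside MYC. The arrays did not overlap for 39 genes that were lower and 2 that were higher, where 41.4% and 31.5% of all genes did so. In bulk RNA such as this, fewer cells that express a gene and less RNA per cell cannot be told apart. Tissue of origin and the history of each line cannot be told apart either.

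**Figure D1:**
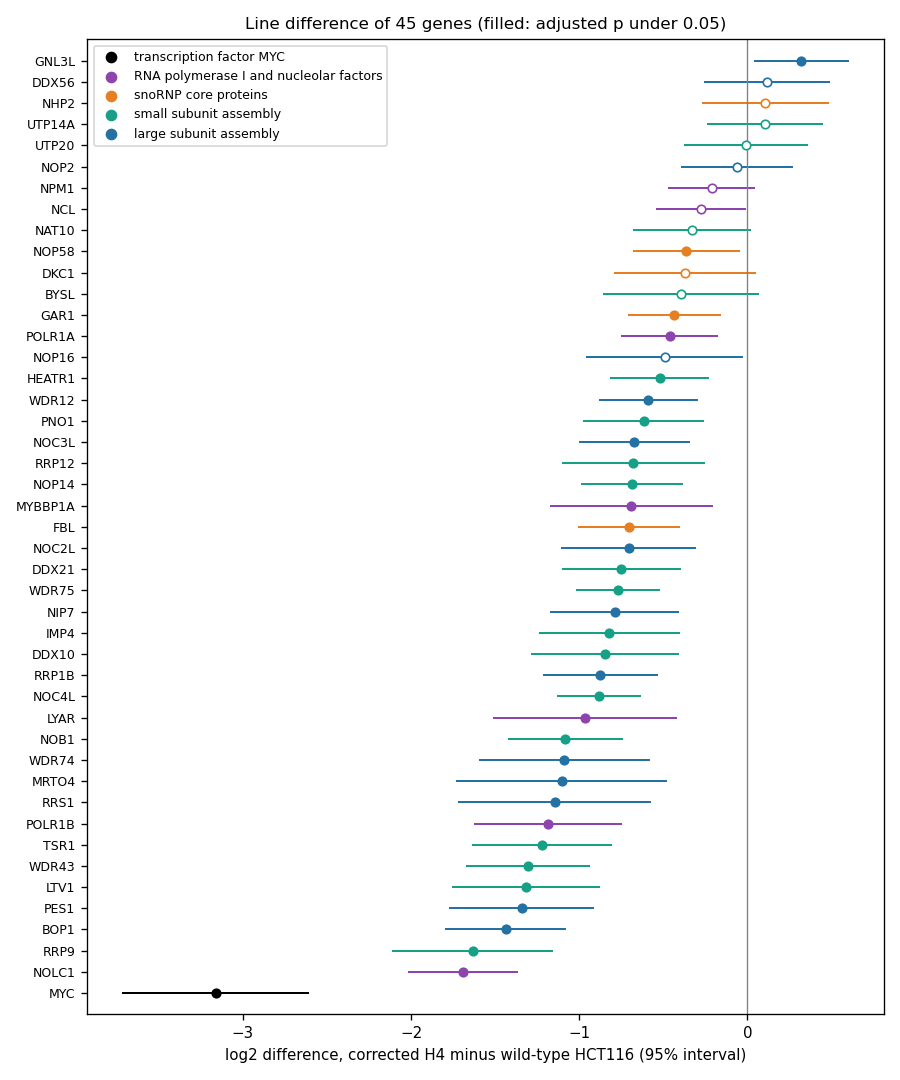
The log2 difference of each of the 45 genes between corrected H4 (n = 3) and wild-type HCT116 (n = 2), with its 95% interval from limma; colours give the role, and filled points passed an adjusted p of 0.05. MYC stands at -3.16, and GNL3L is the only filled point to the right of 0.

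MYC was the member with the largest difference. Its log2 level was 7.44, 7.06 and 7.12 in the deficient and 7.58, 7.30 and 7.29 in the corrected H4 cultures, against 10.60 and 10.50 in wild-type and 10.60 and 10.08 in knockout HCT116. The highest H4 array lay far below the lowest HCT116 array. Corrected H4 was lower than wild-type HCT116 by 8.95-fold (log2 difference -3.16, SE 0.26, limma adjusted p = 9.34e-08), and deficient H4 was lower than the knockout by 8.77-fold (adjusted p = 1.12e-07). In 42MGBA MYC was 6.97, 6.84 and 6.54 in the deficient and 6.51, 6.20 and 7.34 in the corrected cultures, on that line's own scale. As a percentile within the array MYC averaged 64.9 in H4, 77.1 in 42MGBA and 94.2 in HCT116, and its highest H4 array (68.7) lay just under its lowest 42MGBA array (69.0).

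Among the polymerase I and nucleolar factors NOLC1, a chaperone of small nucleolar ribonucleoproteins, differed most between the lines. NOLC1 was 9.79, 9.33 and 9.79 in deficient and 9.62, 9.37 and 9.31 in corrected H4, and 11.20 and 11.05 in wild-type and 10.57 and 10.66 in knockout HCT116. All H4 arrays lay below all HCT116 arrays, and both knockouts lay below both wild-type clones. Corrected H4 was 3.24-fold lower than wild-type HCT116 (limma adjusted p = 2.5e-07). POLR1B, the second largest subunit of RNA polymerase I, was 9.03, 8.79 and 9.41 in deficient and 8.70, 8.33 and 8.61 in corrected H4, and 9.75 and 9.71 in wild-type and 9.60 and 8.88 in knockout HCT116. Its corrected H4 arrays were 2.27-fold lower than wild-type HCT116 (adjusted p = 0.000175), whereas deficient H4 and the knockout overlapped, with a difference of -0.17 (adjusted p = 0.528). POLR1A, the largest subunit, differed by -0.46 with functional STAG2 (adjusted p = 0.00851). NPM1, a nucleolar histone and ribosome chaperone, and NCL, a nucleolar RNA-binding protein, differed by -0.21 and -0.28 and did not pass. NPM1 lay between the 98th and 100th percentile of every array, at 12.2 to 12.5 in H4 and HCT116, while 1 of its 4 probe sets had group means of only 4.17 to 5.57.

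Of the core proteins of the small nucleolar ribonucleoproteins 4 of 5 were lower in corrected H4 without overlap, and 3 of these passed. FBL, the methyltransferase of the box C/D particles, was 10.46, 10.13 and 10.26 in corrected H4 and 11.10 and 10.88 in wild-type HCT116, without overlap, a difference of -0.70 (limma adjusted p = 0.000584). NOP58 of the same particles differed by -0.36 (adjusted p = 0.0485). GAR1 of the box H/ACA particles differed by -0.44 (adjusted p = 0.00918), whereas DKC1, their pseudouridine synthase, at -0.37 and NHP2 at 0.11 did not pass. NHP2 was 9.73, 9.53 and 9.44 in corrected H4 and 9.50 and 9.41 in wild-type HCT116, so the lines overlapped.

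In small subunit assembly RRP9, a protein of the U3 particle, stood out. RRP9 was 8.15, 7.74 and 7.70 in corrected H4 and 9.54 and 9.45 in wild-type HCT116, a 3.10-fold lower level (limma adjusted p = 2.09e-05). LTV1, an export and maturation factor, was 9.49, 9.31 and 8.66 against 10.53 and 10.41, with clone 88-1 well below its group (2.49-fold lower, adjusted p = 6.81e-05). WDR43, of an early complex on the nascent precursor RNA, was 9.73, 9.53 and 9.70 against 10.96 and 10.95 (2.47-fold lower, adjusted p = 1.31e-05). In each of these genes the groups did not overlap. TSR1, NOB1 and NOC4L were lower by 2.33-fold, 2.12-fold and 1.84-fold; NOB1 is the nuclease that makes the final cut of the small subunit RNA. The exceptions were UTP20, at -0.0082 and with overlapping arrays, UTP14A at 0.11, BYSL at -0.40 and the RNA acetyltransferase NAT10 at -0.33, none of which passed.

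In large subunit assembly BOP1, PES1 and WDR12 form 1 complex, and all were lower in H4. BOP1 was 8.85, 8.38 and 8.45 in corrected H4 and 10.08 and 9.92 in wild-type HCT116 (2.71-fold lower, limma adjusted p = 3.8e-06), and its other probe set differed in the same direction. PES1 was 8.94, 8.58 and 8.75 against 10.14 and 10.06 (2.54-fold lower, adjusted p = 4.76e-05), and WDR12 was 10.04, 9.98 and 10.00 against 10.63 and 10.56 (-0.59, adjusted p = 0.00184). These 3 genes showed no overlap between the lines. RRS1, which helps to load the 5S particle, MRTO4 and WDR74 were lower by 2.21-fold, 2.15-fold and 2.13-fold. GNL3L, a nucleolar GTPase, was 9.54, 9.23 and 9.24 in corrected H4 and 9.11 and 8.92 in wild-type HCT116, a difference of 0.32 (adjusted p = 0.0497) that passed narrowly and was lost in several alternatives. The RNA methyltransferase NOP2 (-0.063), the helicase DDX56 (0.12) and NOP16 (-0.49) did not pass.

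Without functional STAG2 fewer of the genes passed between the lines; the change from the other comparison equals the H4 minus HCT116 interaction, in which 0 of 45 passed. In deficient H4 against knockout HCT116, 18 of 45 were lower and 3 were higher, where 24.8% and 23.2% of all genes passed in those directions. The median difference was -0.30 against -0.033 for all genes. All 18 and GNL3L had also passed, in the same direction, with functional STAG2. The 18 were MYC, MYBBP1A, NOLC1, FBL, GAR1, NOP14, RRP9, WDR43, WDR75, NOC4L, NOB1, TSR1, LTV1, DDX10, BOP1, PES1, WDR12 and RRP1B. DDX56 was 10.56, 10.41 and 10.59 in deficient H4 and 10.02 and 9.71 in the knockouts, a difference of 0.65 (limma adjusted p = 0.0056), and UTP14A differed by 0.45 (adjusted p = 0.0305). This count rested on the knockout clones: without clone 7, 7 genes were lower and 5 higher, and without clone 21, 23 were lower and 0 higher, with medians of -0.15 and -0.57.

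Other genes of the pathway were taken from lists written from textbook knowledge, and their counts in corrected H4 against wild-type HCT116 stand beside the 29% of all genes that were lower and the 23.7% that were higher. Of 97 other ribosome assembly factors 73 were lower and 1 was higher, with a median of -0.54. Of 39 other MYC target genes 21 were lower and 2 higher. Among those that were lower were ODC1, the entry enzyme of polyamine synthesis, at -2.09, CAD of pyrimidine synthesis at -1.68, PPAT of purine synthesis at -1.55 and IMPDH2 of guanine nucleotide synthesis at -1.17. CCND2, a D-type cyclin, was higher at 5.52. Subunits of the RNA exosome, which trims ribosomal RNA precursors, were lower for 9 of 13 genes and cytosolic ribosomal proteins for 25 of 58, with 1 gene higher in each list and a ribosomal protein median of -0.20. In the MYC network of partners and antagonists 4 of 14 genes were lower, a share close to that of all genes, and 2 higher, with a median of -0.036; MXD4, a MAX-binding repressor, was among the latter at 1.16.

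Genes with and without the E-box could be compared for 38 of the 45. In corrected H4 against wild-type HCT116, 14 of 19 with an E-box and 12 of 19 without were lower, with median differences of -0.69 and -0.59. In knockout against wild-type HCT116 the medians were -0.31 and -0.21. E-boxes also stood in the windows of 46.2% of the other MYC targets, 28.9% of the other assembly factors and 6.35% of the ribosomal proteins. No test was made of these shares.

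Ranks within an array gave the position of each gene in 42MGBA as well. All 42MGBA arrays lie on another value scale, so line and array processing cannot be told apart in ranks against 42MGBA. The 45 genes had a median percentile of 75.9 in 42MGBA, 87.6 in H4 and 92.1 in HCT116, against 69.5, 70.3 and 70.3 for all genes tested. Above the 75th percentile lay 23, 41 and 44 of them. Every 42MGBA array ranked below every HCT116 array for 40 genes (37.3% of all genes) and above it for 2, GAR1 and NHP2 (35.6%). Another NHP2 probe set had means of 7.20 and 7.21 in deficient and corrected 42MGBA, and 9.28 and 9.32 in wild-type and knockout HCT116. Ranks of that probe set are not given here, so the NHP2 order holds for the row used. Against H4, 42MGBA ranked lower for 26 genes (33.1%) and higher for 5 (31.5%), which were MYC, GAR1, RRP9, NOC4L and BOP1. NOC3L, a large subunit factor, was at the 39.7th percentile in 42MGBA and at the 82.2nd and 86.6th in H4 and HCT116. It lay below the median of every 42MGBA array (at most the 41.5th percentile) and passed the low filter only through H4 and HCT116. H4 ranked below HCT116 in every array for 19 genes (26.6%) and above it for 0 (21.5%).

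**Figure D2:**
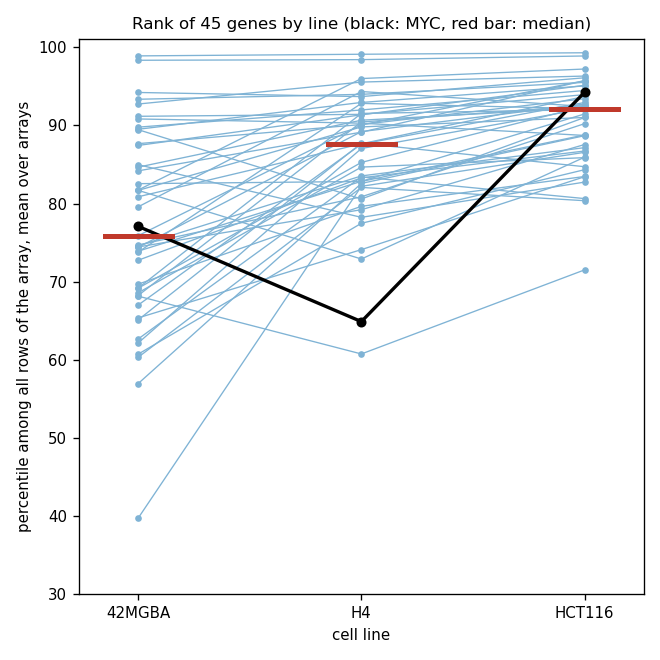
Percentile of each of the 45 genes among all rows of an array, averaged over the arrays of a line (6, 6 and 4 arrays); lines join a gene, the black line is MYC and red bars are medians. The medians are 75.9, 87.6 and 92.1, and MYC is lowest in H4.

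None of the 45 genes passed the test for STAG2 status. In H4 0 of 45 passed (limma, adjusted p under 0.05), where 3.31% of all genes did, and in 42MGBA 0 passed, where 0% of all genes did. In HCT116 0 passed against 0.131% of all genes, and in the mean over the 3 lines 0 against 0.139%. At an unadjusted p under 0.05 H4 had 3 genes (16.4% of all genes), 42MGBA 0 (3.95%), HCT116 8 (7.83%) and the mean over lines 2 (9.86%). The smallest adjusted p-values were 0.138 for POLR1B in H4, 0.47 for NOLC1 in HCT116 and 0.27 for UTP20 in the mean.

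The side of the differences varied by line. Deficient H4 had 37 of 45 genes above corrected H4, with a median of 0.10 against 0.017 for all genes, of which 54.4% were above. That median was 0.059, 0.051 and 0.053 without the parental culture, clone 12 or clone 8-3, and 0.19 and 0.21 without clone 10 or clone 8-1. Deficient 42MGBA had 32 of 45 below corrected 42MGBA, with a median of -0.063 against -0.029 for all genes, of which 60.3% were below. Its direction turned without clone 92-6 (0.020), and it was -0.0043 without clone 53, -0.039 without clone 92, -0.12 without clone 53-1, -0.17 without the parental culture and -0.21 with the parent clone as a block. Knockout HCT116 had 41 of 45 below wild-type, with a median of -0.29 against -0.014 for all genes, of which 53.4% were below. Groups did not overlap for 4 higher and 2 lower genes in H4 (12.1% and 8.68% of all genes), for 0 and 1 in 42MGBA (2.57% and 6.33%) and for 1 and 25 in HCT116 (18.5% and 22.1%).

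In H4 the POLR1B values given above did not overlap between deficient and corrected cultures, and the difference was 0.53 (SE 0.18, 95% interval from limma 0.14 to 0.92). The ribosome export factor RRP12 was 8.70, 8.40 and 9.09 in deficient and 8.56, 8.25 and 8.18 in corrected H4, a difference of 0.40 (limma adjusted p = 0.266), and the arrays overlapped through clone 10. LTV1 was 9.64, 9.45 and 9.62 in deficient H4, a difference of 0.42 (adjusted p = 0.26) that was 0.17 without the low clone 88-1. NOP16 was 9.22, 8.95 and 9.41 in deficient and 8.95, 8.76 and 8.75 in corrected H4 (0.38, adjusted p = 0.355), with clones 10 and 8-1 nearly equal. MYC differed by -0.18 (adjusted p = 0.781), with clone 8-1 highest and clone 10 lowest.

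In HCT116 UTP20, a large scaffold of small subunit assembly, was 8.90 and 8.79 in wild-type and 8.67 and 7.97 in knockout clones, a difference of -0.53 (limma adjusted p = 0.493). RRP9 was 9.25 and 8.42 in the knockouts, a difference of -0.66 (adjusted p = 0.528), and PNO1, which binds the small subunit RNA near its final cut, was 9.47 and 9.50 in wild-type and 9.38 and 8.78 in knockout clones (-0.40, adjusted p = 0.62). In all of these clone 21 was the low array. NOLC1 was the exception, with clone 7 the lower knockout, and differed by -0.51 (SE 0.16, adjusted p = 0.47). DDX10, a small subunit helicase, was 9.31 and 9.24 in wild-type and 9.73 and 9.03 in knockout clones, so that clone 7 was above and clone 21 below the wild-type clones. MYC differed by -0.21 (adjusted p = 0.911), with clone 7 level with wild-type clone 24.

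**Figure D3:**
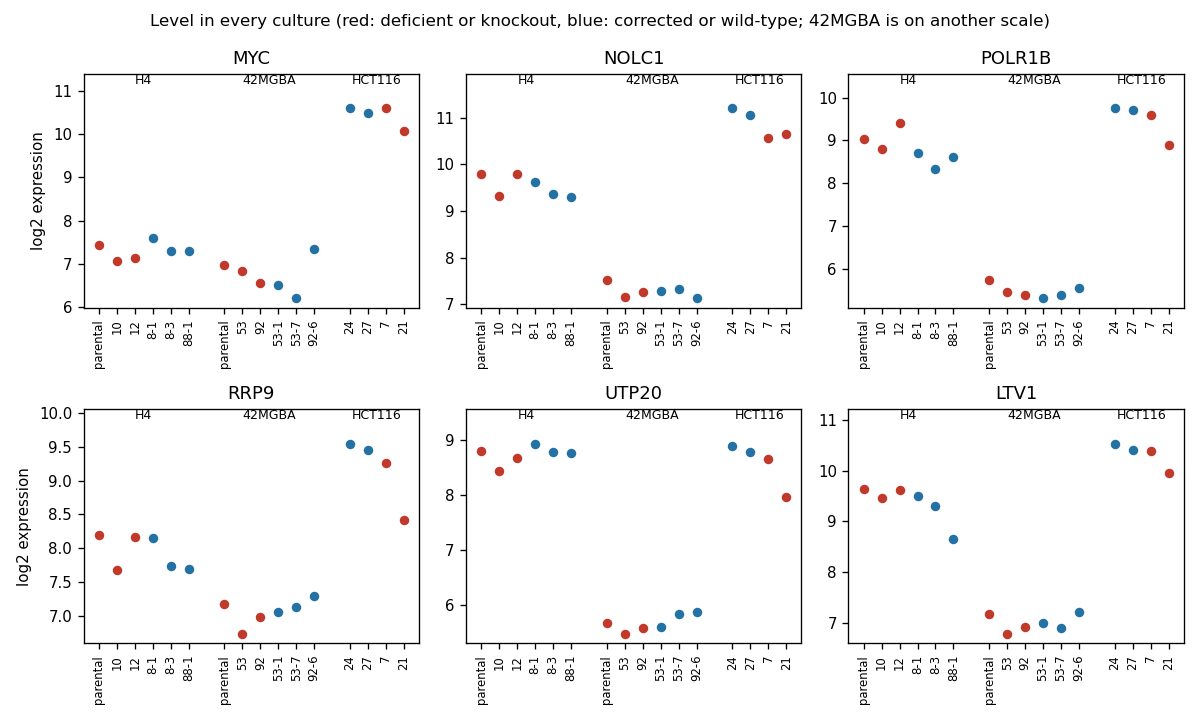
Log2 level of MYC, NOLC1, POLR1B, RRP9, UTP20 and LTV1 in each of the 16 cultures, 1 point per array, red for deficient or knockout and blue for corrected or wild-type; 42MGBA lies on another value scale. In HCT116 the low point is clone 21 in each panel but NOLC1, where it is clone 7.

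In 42MGBA PNO1 was 6.65, 6.39 and 6.15 in deficient and 6.57, 6.75 and 6.75 in corrected cultures (-0.29, limma adjusted p = 1). UTP14A was 5.96, 5.61 and 5.45 against 5.78, 5.87 and 6.18 (-0.27, adjusted p = 1). Both overlapped through the parental culture. BOP1, the 1 gene without overlap, was 7.82, 7.59 and 7.87 against 7.92, 7.92 and 8.11, a difference of -0.22. Over the 3 lines UTP20 had a mean difference of -0.31 (SE 0.09, adjusted p = 0.27) and PNO1 one of -0.23.

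The STAG2 differences of H4 and HCT116 were on opposite sides of 0 for most of these genes, and the difference between them was tested by interaction. It was positive for 43 of 45 genes, with a median of 0.40 against 0.037 for all genes, of which 55.6% were positive. By limma 0 of 45 passed, against 0.293% of all genes, and 12 of 45 had an unadjusted p under 0.05, against 13.5%. POLR1B had the largest value, 1.02 (SE 0.29, adjusted p = 0.14), followed by RRP9 at 0.82 (adjusted p = 0.267) and NOP16 at 0.73. Of the interactions with 42MGBA, 0 of 45 passed in H4 minus 42MGBA (0.254% of all genes) and 0 in HCT116 minus 42MGBA (0.0231%). At an unadjusted p under 0.05 they held 0 (11.3% of all genes) and 1 (4.85%).

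Most of the 45 genes were high or low in the same cultures, though MYC did not always follow. Each value was set against the mean of its line over all arrays, deficient and proficient. In H4 the median over the genes was 0.15 in the parental culture, -0.13 in clone 10, 0.15 in clone 12, 0.11 in clone 8-1, -0.14 in clone 8-3 and -0.15 in clone 88-1. The parental culture had 43 of 45 genes above the line's mean, clone 12 had 38 and clone 8-1 had 40, while clone 10 had 4 and clones 8-3 and 88-1 had 6 each. Of all genes 44.3% to 54.8% lay above it in these cultures. High and low cultures thus stood on both sides of the STAG2 comparison, and the sister clones 8-1 and 8-3 stood apart from each other. The medians of all genes tested lay between -0.019 and 0.017 in these cultures. MYC went against most of the genes in clone 12, where it was the lowest of the 45 at -0.18.

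In 42MGBA the medians were 0.15 in the parental culture, -0.16 and -0.094 in clones 53 and 92, and -0.081, 0.0070 and 0.20 in clones 53-1, 53-7 and 92-6. Above the line's mean lay 40 genes in the parental culture, 6 and 4 in clones 53 and 92, and 7, 24 and 43 in clones 53-1, 53-7 and 92-6. Of all genes 53.9%, 43.8%, 38.1%, 49.7%, 58.9% and 55.1% lay above it in the same order, with medians between -0.031 and 0.031. The parental and the 92-6 culture, one deficient and one corrected by label, were the high ones. MYC was high in 92-6, at 0.61, and low in 53-7, at -0.54. In clone 53, where most of the genes were low, MYC was the highest of the 45 at 0.10.

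In HCT116 the medians were 0.16 and 0.095 in wild-type clones 24 and 27, 0.062 in knockout clone 7 and -0.34 in knockout clone 21. Above the line's mean lay 41, 37, 35 and 2 of 45 genes, against 53.2%, 52.1%, 51.1% and 47.2% of all genes. Clone 21 was below clone 7 for 43 of 45 genes (52.9% of all genes), with a median gap of -0.42 against -0.015 for all genes. Set against the wild-type mean, clone 7 had a median of -0.060 with 33 genes below, and clone 21 had -0.51 with 43 below, RRP9 lowest at -1.08. Each clone is 1 array, so the gap between them has no replicate check. STAG2 was low in both, at 6.57 in clone 7 and 7.14 in clone 21. Without clone 7 the HCT116 comparison had 1 gene past the test, UTP20 at -0.88 (limma adjusted p = 0.0302), and without clone 21 it had 0.

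**Figure D4:**
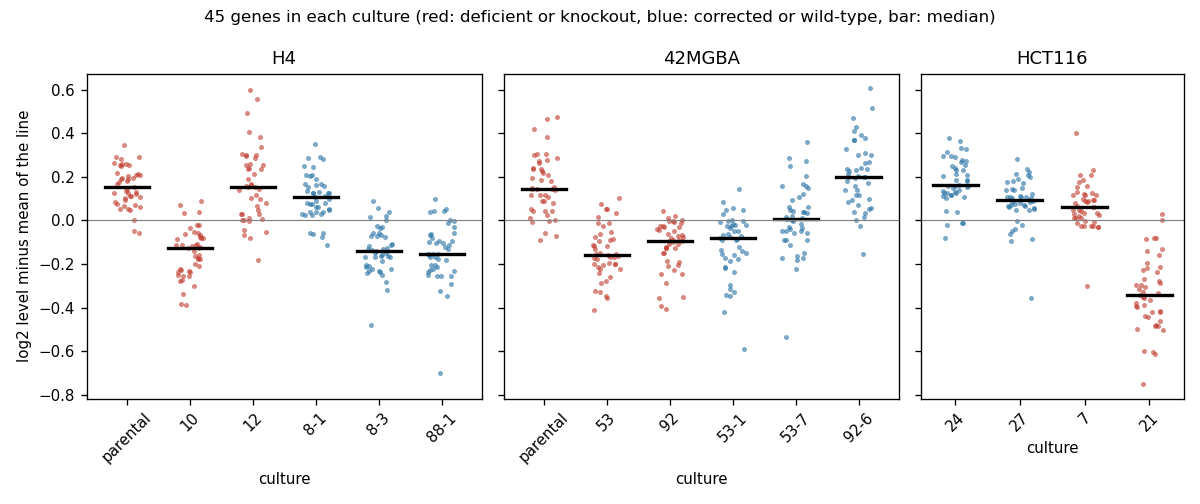
Log2 level of the 45 genes minus each gene's mean over its line, by culture; red cultures are deficient or knockout, blue ones corrected or wild-type, and bars are medians. Medians run from -0.15 to 0.15 in H4, from -0.16 to 0.20 in 42MGBA and from -0.34 to 0.16 in HCT116, with colours mixed in H4 and 42MGBA.

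**Figure D5:**
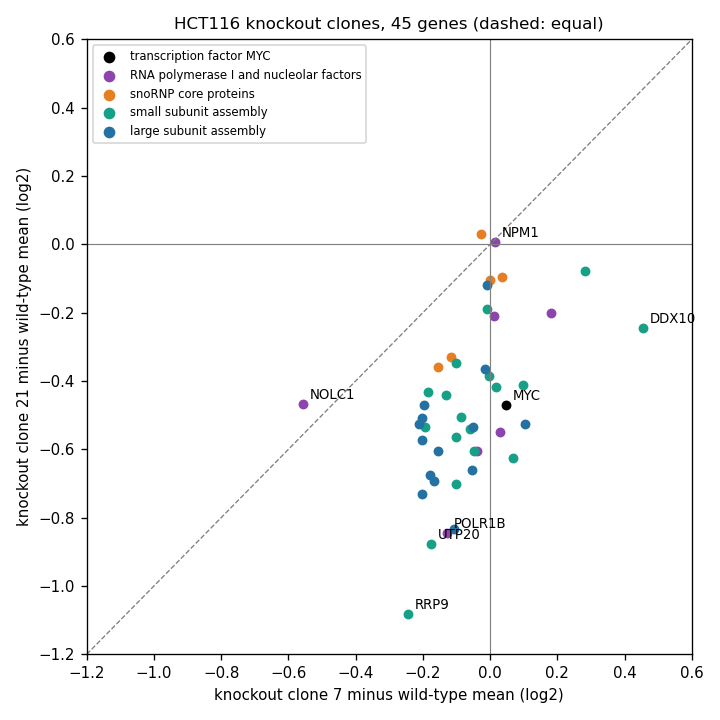
Log2 difference from the wild-type mean of each of the 45 genes in HCT116 knockout clone 7 (horizontal) and clone 21 (vertical), coloured by role; the dashed line marks equal values. All but 2 points lie below it, and RRP9 is lowest in clone 21 at -1.08.

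The spread within a line is given here as a description, with no test. The range from the lowest to the highest array had a median of 0.48 in H4, 0.52 in 42MGBA and 0.58 in HCT116, against 0.41, 0.35 and 0.30 for all genes tested. The widest were POLR1B in H4 (1.08), MYC in 42MGBA (1.14) and RRP9 in HCT116 (1.13). POLR1A in H4 (0.15), WDR75 in 42MGBA (0.11) and NPM1 in HCT116 (0.019) were the narrowest. By role the clone 21 median was -0.40 for large subunit factors, -0.34 for small subunit factors, -0.21 for the polymerase I and nucleolar group and -0.081 for core proteins of the small nucleolar ribonucleoproteins.

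The other assembly factors and the other MYC targets had medians on the same side of 0 as the 45 genes in every culture. The MYC network and 5 host genes of small nucleolar RNAs did not, with 0.027 and 0.053 in H4 clone 10. In clone 21 the median was -0.25 for the 97 other assembly factors, -0.16 for the 39 other MYC targets and -0.17 for the exosome, but 0.030 for the 58 cytosolic ribosomal proteins. In the H4 parental culture the other assembly factors stood at 0.10 and in clone 10 at -0.083, and in 42MGBA clone 92-6 they stood at 0.14. Between knockout and wild-type HCT116 94 of the 97 other assembly factors were below wild-type, against 53.4% of all genes, with 0 past the test. The ribosomal proteins leaned the other way, with 36 of 58 above wild-type, 22 below and 0 past the test. In deficient against corrected H4 EXOSC4, an exosome subunit, rose by 0.53 (limma adjusted p = 0.0187) and BUD23, a methyltransferase of the small subunit RNA, by 0.48 (adjusted p = 0.0488). No other gene of these lists passed in a STAG2 comparison within a line. Growth rate and confluence of each culture were not measured here, and their part in these values was not tested.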

How the data were processed

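Total RNA of 16 cultures was measured, 1 array each. The deposited table holds log2 expression for 33297 rows, which the authors computed by RMA in Affymetrix Expression Console, per the submitters' processing notes. Versions and settings are not given in the sources used here. RMA puts arrays processed together on a common distribution, so the lower medians of 42MGBA show another scale. Rows were named from the platform annotation, with symbols updated through Entrez identifiers to RefSeq names (19429 of 19460 single-gene rows). The annotation's genome build was not named, so array coordinates are not given. Genes with a row above the array median on at least 2 arrays were tested.

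Groups came from sample titles. The tool was limma 3.58.1 (R 4.3.3), run once on all 16 arrays with 6 group means. Tests were two-sided, Benjamini-Hochberg adjustment ran over all 12978 genes in each contrast, and an adjusted p under 0.05 was the threshold. The scripts were tested on simulated data. Each SE rests on a spread shared by the 3 lines, and the number of arrays limits the precision. The members, roles and companion lists were chosen with earlier results of these data known. Named genes were MYC, up to 12 genes with the smallest p-values per contrast, those past the threshold, the extremes of each role, and up to 4 genes of each companion list by p-value; other genes were added after their values were seen. Alternatives changed the scaling, filter, row per gene, spread estimate, parental arrays, related clones and the arrays included.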

Additional observations from a re-analysis of the deposited data

Results flagged for a closer look

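The STAG2 difference itself differed between lines by a test of interaction in limma. It was lower by -1.89 on the log2 scale in H4 than in 42MGBA (adjusted p = 0.00902) and by -2.14 in HCT116 than in 42MGBA (adjusted p = 0.014). The comparisons of the 45 genes in 42MGBA therefore rest on labels that STAG2 RNA did not separate. None of the 45 genes passed such a test.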

How the results depend on the processing

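Of 2063 alternative values 2039 kept their direction and their side of the threshold. These values cover only MYC and the genes with the smallest p-values in each contrast. For corrected H4 against wild-type HCT116 they leave out every gene that passed with a larger p-value than POLR1B. Among these are FBL, WDR12, POLR1A, RRS1, MRTO4, WDR74, GNL3L, NOP58 and GAR1. The count therefore does not describe how stable those calls were. The single higher gene in corrected H4 against wild-type HCT116, GNL3L, was lost (0 higher) with array medians set equal, with medians and interquartile ranges set equal, with no filter on low values, without the parental arrays, with sister clones averaged, and without the 42MGBA arrays, an alternative chosen after seeing the data. In these alternatives the cause was not tested.

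Leaving out 1 culture at a time gave 0 to 1 genes higher there. For deficient H4 against knockout HCT116 it gave 0 to 5 higher, 7 to 23 lower and medians of -0.57 to -0.15. For knockout against wild-type HCT116 it gave 0 to 1 lower and medians of -0.51 (without clone 7) to -0.060 (without clone 21), and for the mean of the lines 0 to 1 lower (UTP20 at -0.42, limma adjusted p = 0.0412, without clone 7). For H4 minus HCT116 it gave 0 to 1 higher (POLR1B at 1.38, adjusted p = 0.0325, without clone 7) and medians of 0.19 to 0.62, and for HCT116 minus 42MGBA medians of -0.43 to 0.020.

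Direction changed for MYC, which ran from -0.14 to 0.43 in 42MGBA, -0.47 to 0.046 in HCT116, -0.18 to 0.011 in the mean and -0.23 to 0.29 in H4 minus HCT116 (-0.088 without the parental arrays). It also changed for FBL in 42MGBA (-0.15 to 0.022), POLR1A in HCT116 (-0.55 to 0.028) and, in HCT116 minus 42MGBA, POLR1A (-0.56 to 0.014), UTP20 (-0.68 to 0.020) and RRP12 (-0.67 to 0.025). In 42MGBA MYC was -0.065 with sister clones averaged and -0.066 with the parent clone as a replicate block.

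With that replicate block 0 genes passed in 42MGBA and the median was -0.21. Deviations of clone 53 correlated with those of 53-1 and 53-7 at 0.051 and 0.16 over 12978 genes. Those of 92 correlated with 92-6 at -0.17, so not every clone correlated with its derivative above 0.1. Clones of different parents gave -0.20 for 53 with 92-6, 0.28 for 92 with 53-1 and -0.089 for 92 with 53-7. The highest value was thus between clones of different parents. All genes past the test ranged from 34 to 633 in H4 and from 3 to 77 in HCT116 over the alternatives.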
